A study of Mus musculus with 4 samples.

Results

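The CDX homeobox genes and the regulators and keratins of the trophectoderm were followed in mouse embryonic stem cells (mESCs) supplied with wild-type CTCF or with a mutant deficient in O-GlcNAc. The group holds 10 genes, taken by symbol from the 37620 genes of the count table: Cdx1, Cdx2, Cdx4, Elf5, Tfap2c, Gata3, Tead4, Hand1, Krt8 and Krt18. All 10 had counts, and all 10 were among the 16264 genes that passed a filter on low counts and entered the fit, called the tested genes below. The group was selected on these data, since Cdx1 and Cdx2 had been seen lower in MUT_CTCF mESCs, so its differences between the lines are given as a description, with no test.

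The libraries came from 2 mESC lines, WT_CTCF and MUT_CTCF, and the question was which transcripts differ between them. In both lines the endogenous CTCF carries an EGFP and an auxin-inducible degron tag, and a vector that was selected with hygromycin supplies CTCF. The vector encodes wild-type CTCF in WT_CTCF mESCs and CTCF mutated at T668, which is deficient in O-GlcNAc, in MUT_CTCF mESCs. Auxin, a plant hormone that triggers destruction of degron-tagged proteins, removes the endogenous protein in both. Each line is a picked clone whose exogenous CTCF was near the endogenous level, so a difference between clones and the effect of the mutation cannot be told apart. Cells grew on gelatin in serum medium with LIF, which sustains pluripotency. There were 2 biological replicates per line, and p-values measure only the spread between these. The depth was even, with 40977464 and 40824156 counted reads for WT_CTCF replicates 1 and 2 and 40899401 and 40524694 for MUT_CTCF replicates 1 and 2, all uniquely mapped.

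The trophectoderm is the outer epithelium of the blastocyst and the source of the placental trophoblast. In outer cells of the embryo TEAD4 with its coactivator YAP turns on Cdx2, while inner cells keep YAP out of the nucleus through Hippo signalling and retain the pluripotency factors. CDX2 and the pluripotency factor OCT4 (Pou5f1) repress each other, and forced CDX2 turns mESCs toward trophoblast. Later in development the CDX factors act in the tail bud, downstream of WNT signalling, where they pattern the trunk through Hox genes.

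Markers of the labelled cell type were abundant in every library. The 5 mESC markers Pou5f1, Sox2, Nanog, Esrrb and Zfp42 summed to 4421 and 4431 CPM (counts relative to library size, after scaling) in WT_CTCF and to 4418 and 4415 CPM in MUT_CTCF mESCs. Ctcf had 18490 ± 259 normalised counts (SD, n = 2) in WT_CTCF and 19060 ± 378 in MUT_CTCF mESCs, with a log2 fold change of 0.04 (SE 0.0284, adjusted p = 0.499 by edgeR's quasi-likelihood test). Counts were normalised by scaling each library to the average one, and they cannot separate the endogenous from the exogenous Ctcf transcript. The 7 markers of trophoblast used for this check (Elf5, Eomes, Hand1, Tpbpa, Prl3d1, Gcm1 and Plac1) summed to 9.478 and 7.421 CPM in WT_CTCF and to 7.972 and 7.957 CPM in MUT_CTCF mESCs. A wider list of 28 other trophectoderm and trophoblast genes is read below. It summed to 285.2 and 285.6 CPM in WT_CTCF and to 289.5 and 296.0 CPM in MUT_CTCF mESCs. Tpbpa and Prl3d1, markers of placental spongiotrophoblast and giant cells, had 0 counts in all 4 libraries, and Eomes was the most abundant of the 7 per kilobase. A count of 0 allows up to 3 counts, which is 0.0732 to 0.074 CPM across the libraries, counting error only.

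Within the mESCs the 10 genes spanned a wide range of levels. On a scale of CPM per kilobase of exons, Cdx1 was highest, at 54.8 ± 5.99 (SD, n = 4 libraries), above 92.1% of the tested genes. Cdx1 (chromosome 18 of mm9, 61178516 to 61195853, minus strand) is thus among the abundant transcripts of these cells. Tfap2c followed at 24.9 ± 0.827, then Krt8 at 13.5 ± 1.64, Tead4 at 9.95 ± 0.601 and Krt18 at 7.74 ± 0.813. Cdx2 stood at 2.34 ± 0.896 and Hand1 at 1.09 ± 0.207 on the same scale. Gata3 at 0.535 ± 0.0355, Cdx4 at 0.278 ± 0.0624 and Elf5 at 0.0501 ± 0.0105 were lowest, and Elf5 lay above only 0.984% of the tested genes. No neighbours in this order overlapped across the 4 libraries.

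**Figure D1:**
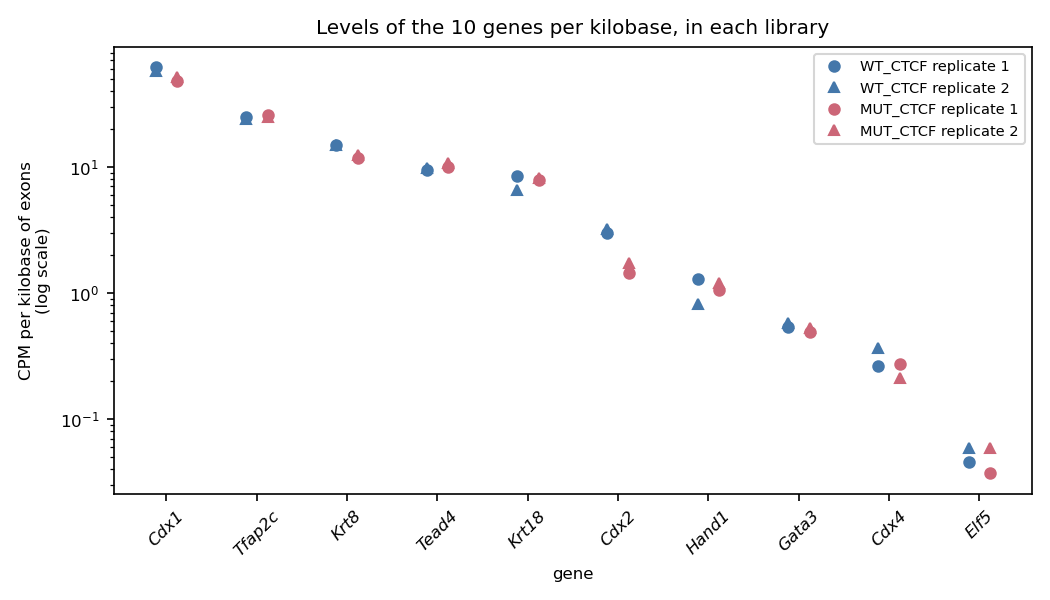
Level of each of the 10 genes in CPM per kilobase of exons (log scale) in the WT_CTCF (blue) and MUT_CTCF (red) libraries, with replicate 1 as circles and replicate 2 as triangles. Genes are ordered by their mean over the 4 libraries, from Cdx1 at 54.8 down to Elf5 at 0.0501, and the red points of Cdx2 lie below its blue points.

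The members went through the same fit as all other genes, and as they were selected on this contrast neither p-values nor calls are given for them. Both MUT_CTCF libraries lay below both WT_CTCF libraries for 4 members (Cdx1, Cdx2, Gata3 and Krt8), and 22.3% of all tested genes did the same. Both lay above for 1 member, Tead4, and for 22.3% of all tested genes. The median log2 fold change of the 10 was -0.13, beside 0.0034 for all tested genes, and nothing is read from these counts or this median. Over the 4 fits that left out a library the log2 fold change ran from -1.12 to -0.84 for Cdx2, from -0.31 to -0.21 for Cdx1 and from -0.34 to -0.27 for Krt8. It ran from -0.19 to -0.073 for Gata3 and from 0.018 to 0.085 for Tfap2c, and the ranges of the other members are given below. In the bulk RNA, fewer cells that express a gene and less RNA per cell cannot be told apart.

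**Figure D2:**
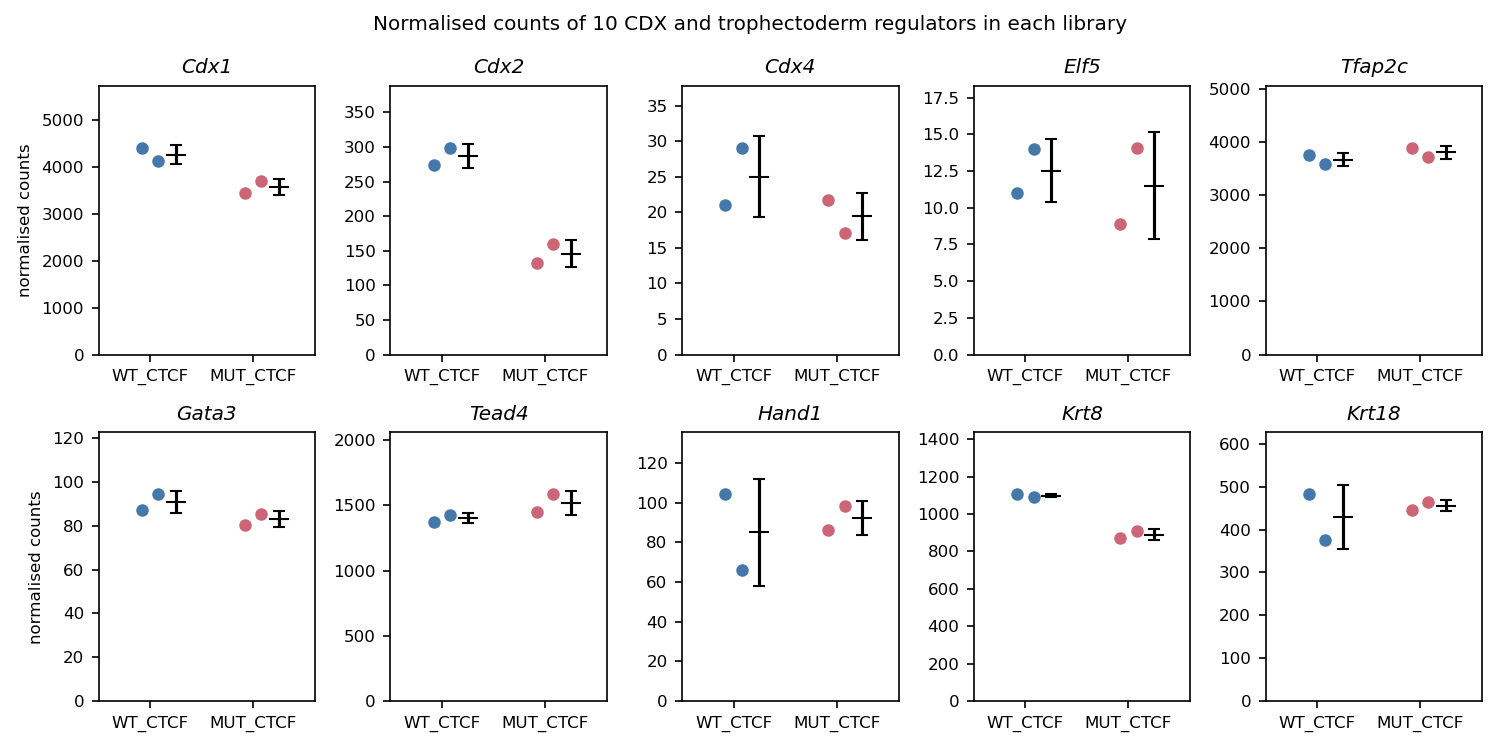
Normalised counts of each of the 10 genes in each library, with a panel per gene, WT_CTCF in blue and MUT_CTCF in red, and the mean ± SD of 2 libraries as a black bar. The axes start at 0, and the MUT_CTCF points of Cdx1, Cdx2, Krt8 and Gata3 lie below the WT_CTCF points, by the widest relative gap for Cdx2 (145.8 beside 286.6).

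Cdx2 showed the widest gap of the CDX genes. Its counts were 274 and 298 for WT_CTCF and 133 and 159 for MUT_CTCF mESCs. Normalised counts went from 286.6 ± 17.2 to 145.8 ± 19.7 (SD, n = 2), a MUT_CTCF to WT_CTCF ratio of 0.509 and a log2 fold change of -0.97 (SE 0.177). Cdx1, the paralogue that in the embryo is expressed in the primitive streak and gut and responds to WNT and retinoic acid, had 4393 and 4102 counts in WT_CTCF and 3471 and 3673 in MUT_CTCF mESCs. Its normalised counts were 4256 ± 204 and 3566 ± 176, a ratio of 0.838 and a log2 fold change of -0.26 (SE 0.0487). Because Cdx2 was lower by more than Cdx1, the ratio of Cdx1 to Cdx2 per kilobase was 20.7 and 17.8 for WT_CTCF and 33.7 and 29.8 for MUT_CTCF mESCs.

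Cdx4, the X-linked and least expressed CDX gene, had few reads. Its counts were 21 and 29 in WT_CTCF and 22 and 17 in MUT_CTCF mESCs, and the groups overlapped. The log2 fold change was -0.36 with an SE of 0.594, and it ran from -0.58 to -0.11 over the fits that left out a library. On the scale per kilobase Cdx2 exceeded Cdx4 11.3 and 8.92 times for WT_CTCF and 5.25 and 8.12 times for MUT_CTCF mESCs.

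The promoters of Cdx2, the gene with the widest gap, and of its paralogue Cdx4 are shown because both hold the octamer ATGCAAAT, the letters that OCT4 and other POU factors read. The sequences come from a set of RefSeq promoters (GRCm38.p6), in which 6 of the 10 members were matched, with 7 promoters. Each is the 225 bases from 250 to 26 before the start of the gene, 5′ to 3′ on the strand of the gene, with the octamer in capitals. The Cdx2 window is chr5:147307275-147307499 (minus strand), with the octamer 147 to 140 bases before the start. The Cdx4 window is chrX:103321148-103321372 (plus strand), with the octamer 93 to 86 bases before the start.
Cdx2: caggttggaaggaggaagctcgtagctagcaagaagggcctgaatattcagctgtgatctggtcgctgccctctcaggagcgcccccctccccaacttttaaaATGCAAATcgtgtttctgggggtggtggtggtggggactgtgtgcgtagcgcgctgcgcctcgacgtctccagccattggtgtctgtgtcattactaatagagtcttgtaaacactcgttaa
Cdx4: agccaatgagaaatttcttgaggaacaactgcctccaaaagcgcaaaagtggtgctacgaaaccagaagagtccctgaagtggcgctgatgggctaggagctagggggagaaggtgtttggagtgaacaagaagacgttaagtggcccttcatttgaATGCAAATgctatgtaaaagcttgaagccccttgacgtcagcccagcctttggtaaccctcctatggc
On either strand (ATGCAAAT or ATTTGCAT) the octamer was in 1.51% of 32851 promoter windows of the same length. The TCF/LEF letters CTTTGA, the TEAD letters GGAATG and the CDX letters TTTATG, searched on both strands as well, were in 12.9%, 11.6% and 9.88% of the windows. Of the members' windows these 3 motifs were found only in those of Elf5. A match is a string of letters, not a binding site, and the absence of one says only that these letters are not in the window.

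The 3 nearest coding genes on each side of Cdx2, of Cdx4 and of the Krt8 and Krt18 pair were read in the same fit. Cdx2 (chromosome 5 of mm9, 148112381 to 148118846, minus strand) sits in the ParaHox cluster with Pdx1, a pancreatic homeobox gene 22.8 kb away, and Gsx1, a neural homeobox gene 109.9 kb away. Pdx1 had 12 and 12 counts in WT_CTCF and 21 and 1 in MUT_CTCF mESCs, Gsx1 had 2, 2, 8 and 0, and Prhoxnb, 7.7 kb away, had 0, 6, 4 and 1, so these 3 had few reads and overlapped between the lines. Flt3, the gene of a haematopoietic receptor 23.5 kb away, had 9 and 6 counts in WT_CTCF and 13 and 21 in MUT_CTCF mESCs. Farther out, Polr1d, of an RNA polymerase subunit, and Pan3, of a deadenylase, had log2 fold changes of -0.03 (SE 0.0538) and -0.15 (SE 0.0773).

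Around Cdx4 (chromosome X, 100516737 to 100525931, plus strand) the nearest gene, 4930519F16Rik at 9.6 kb, had 83 and 42 counts in WT_CTCF and 62 and 39 in MUT_CTCF mESCs, and the groups overlapped. Chic1, the nearest on the other side at 25.9 kb, had 183 and 171 counts and then 195 and 204, with a log2 fold change of 0.17 (SE 0.185). Tsx, next to it at 83.9 kb, had 51 and 45 counts and then 80 and 83, while Nap1l2, 134.8 kb away on the side of 4930519F16Rik, had 83 and 108 counts and then 58 and 70. None of these 4 passed. The outermost, 1700011M02Rik and Zcchc13, had too few reads to be tested. Around the keratin pair Krt79 (log2 fold change -0.05, SE 0.39), Eif4b (-0.03, SE 0.0257), Tenc1 (0.09, SE 0.158) and Spryd3 (-0.19, SE 0.076) were tested, and Krt78 and Krt4 were not. Spryd3 and Tenc1 share 57 exon bases. Of the 18 nearest coding genes of Cdx2, Cdx4 and the Krt8 and Krt18 pair, 12 were tested and 0 passed at an adjusted p under 0.05 by edgeR's quasi-likelihood test, with adjusted p from 0.191 to 0.973, while 3.17% of all tested genes passed. At an unadjusted p under 0.05 the count was 2, Tsx as higher and Spryd3 as lower, beside 15.3% of all tested genes, and DESeq2 called 0, with no adjusted p for 8 of the 12.

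Tead4, which acts upstream of Cdx2 in the embryo, was not lower in MUT_CTCF mESCs. Its counts were 1373 and 1424 in WT_CTCF and 1464 and 1575 in MUT_CTCF mESCs. Both MUT_CTCF libraries were above both WT_CTCF libraries by a small margin, with a log2 fold change of 0.11 (SE 0.0723). That fold change ran from 0.049 to 0.18 over the fits that left out a library. Tfap2c, the gene of AP-2 gamma, which sustains Cdx2 and the trophoblast stem cell state and is also active in germ cells and mESCs, had 3749 and 3578 counts in WT_CTCF and 3922 and 3700 in MUT_CTCF mESCs. These values interleaved, and the log2 fold change was 0.05 (SE 0.0484).

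The factors that act beside or after CDX2 had few reads. Gata3, a zinc finger factor that promotes trophectoderm in parallel to CDX2, had 87 and 94 counts in WT_CTCF and 81 and 85 in MUT_CTCF mESCs, with a log2 fold change of -0.13 (SE 0.282). The groups did not overlap but came within 2 counts of each other, and 232 exon bases of Gata3 are shared with 9230102O04Rik and Gm13256, whose reads cannot be told apart without strand. Hand1, needed for trophoblast giant cells, had 104 and 66 counts in WT_CTCF and 87 and 98 in MUT_CTCF mESCs, so the WT_CTCF libraries spanned the others (log2 fold change 0.12, SE 0.285). Elf5, an ETS factor that marks trophoblast stem cells and is kept methylated in mESCs, had 11 and 14 counts in WT_CTCF and 9 and 14 in MUT_CTCF mESCs (log2 fold change -0.12, SE 0.759). With so few reads these 3 genes could show only differences well above their standard errors.

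**Figure D3:**
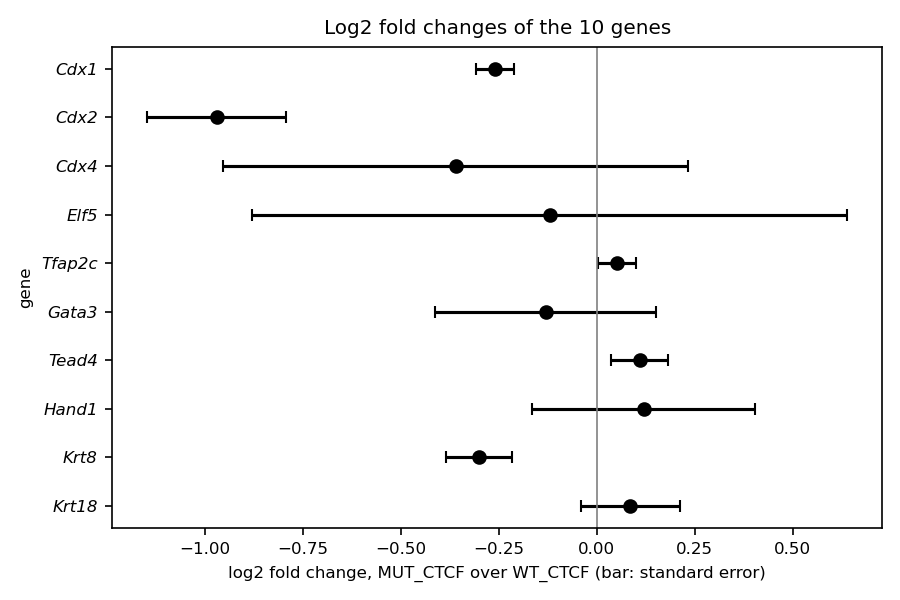
Log2 fold change of MUT_CTCF over WT_CTCF for each of the 10 genes (point) with its standard error (bar). Cdx2 at -0.97 is farthest from 0, Cdx1 at -0.26 and Krt8 at -0.30 have narrow bars below 0, and the bars of Cdx4 and Elf5, the genes with the fewest reads, are the widest.

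Krt8 and Krt18 encode the type II and type I keratins that pair into the intermediate filaments of simple epithelia, the trophectoderm included, and they lie side by side (chromosome 15 of mm9, 101827142 to 101834773 and 101858647 to 101862457). Krt8 had 1102 and 1089 counts in WT_CTCF and 878 and 905 in MUT_CTCF mESCs. These were 1098 ± 8.62 and 889.9 ± 27.5 normalised counts (SD, n = 2), with a log2 fold change of -0.30 (SE 0.0849). Krt18 had 481 and 375 counts in WT_CTCF and 450 and 462 in MUT_CTCF mESCs, with both MUT_CTCF values inside the WT_CTCF range and a log2 fold change of 0.09 (SE 0.127), and leaving out WT_CTCF replicate 2 turned the latter to -0.082. Per kilobase the ratio of Krt8 to Krt18 was 1.78 and 2.25 for WT_CTCF and 1.51 and 1.52 for MUT_CTCF mESCs, and the difference between the pair was not tested.

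Another type I keratin of simple epithelia, Krt19, was the gene that rose among 24 tested genes of 28 listed as other trophectoderm and trophoblast genes. Its counts were 124 and 141 in WT_CTCF and 270 and 323 in MUT_CTCF mESCs. Both MUT_CTCF libraries were far above both WT_CTCF libraries, at 296.1 ± 40.2 against 132.8 ± 12.1 normalised counts (SD, n = 2), with a log2 fold change of 1.16 (SE 0.179, adjusted p = 1.21e-05 by edgeR's quasi-likelihood test, range over its alternatives 8.24e-08 to 0.252). Krt8 was 9.13 and 7.94 times the level of Krt19 per kilobase in WT_CTCF and 3.34 and 2.88 times in MUT_CTCF mESCs. Of the list 1 gene rose and 0 fell (4.17% of the 24), while of all tested genes 3.17% passed, 1.56% as higher and 1.61% as lower. This list and those below were written with earlier results of these data known, so their shares are a description. At an unadjusted p under 0.05 this list had 5 higher and 3 lower. Of all 16264 tested genes 15.3% had such a p in either direction, 1238 higher and 1245 lower. DESeq2 called 0 and gave no adjusted p for 16 of the 24, Krt19 among them. The median log2 fold change of the list was 0.07. The most abundant gene of the list per kilobase, the tight junction gene Cldn4, had 2434 ± 58.0 and 2403 ± 35.6 normalised counts in WT_CTCF and MUT_CTCF mESCs. Eomes, a T-box factor of trophoblast stem cells, had 270 and 212 counts in WT_CTCF and 230 and 208 in MUT_CTCF mESCs, and the groups overlapped. The call of Krt19 was lost without MUT_CTCF replicate 1 (adjusted p = 0.182), without MUT_CTCF replicate 2 (adjusted p = 0.252) and with low counts left in (adjusted p = 0.0855), all by the same edgeR test, while its log2 fold change there was 1.29, 1.01 and 1.16.

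The pathway upstream of Cdx2 was read through 24 Hippo, TEAD and Notch genes, all tested, of which 1 rose and 1 fell (8.33%, beside 3.17% of all tested genes). At an unadjusted p under 0.05 there were 4 higher and 1 lower, beside 15.3% of all tested genes in either direction. The median log2 fold change was 0.04. Tead1, a paralogue of Tead4, went from 3204 and 3074 counts in WT_CTCF to 3676 and 3611 in MUT_CTCF mESCs. It rose in both libraries, with a log2 fold change of 0.21 (SE 0.05, adjusted p = 0.00816 by edgeR's quasi-likelihood test, range over its alternatives 0.00208 to 0.365). The annotation holds another gene model named Tead1 that shares 3846 exon bases with it. That model has its own counts, which are not given here. Amotl2, an angiomotin that binds YAP and holds it in the cytoplasm, went from 9041 and 9505 counts to 8573 and 8290. It fell by 0.14 on the log2 scale (SE 0.0355, adjusted p = 0.0118 by the same edgeR test, range 0.00258 to 0.403). Hes1, a Notch target and the most abundant of the list per kilobase, had 4055, 4098, 3945 and 4473 counts in the order WT_CTCF replicates 1 and 2, MUT_CTCF replicates 1 and 2, and the groups overlapped. Yap1 itself had a log2 fold change of 0.0036 (SE 0.0361). Both calls were lost, leaving 0 in the list, when MUT_CTCF replicate 1, MUT_CTCF replicate 2 or WT_CTCF replicate 2 was left out and when no filter was applied. Over the fits that left out a library the log2 fold change ran from 0.18 to 0.24 for Tead1 and from -0.18 to -0.11 for Amotl2.

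Genes of the caudal embryo and the posterior streak gave 3 falls and 0 rises among 24 tested of 26 listed (12.5%). In this setting CDX factors act later in development. Of all tested genes 3.17% passed in either direction and 1.61% as lower. The list was written with earlier results of these data known, so its counts are a description. Of the 24, 1 was higher and 5 were lower at an unadjusted p under 0.05. Of all 16264 tested genes 15.3% had such a p in either direction, 1238 higher and 1245 lower. Sp5, a zinc finger factor induced by WNT in the streak and tail bud, had 2554 and 2383 counts in WT_CTCF and 1835 and 2080 in MUT_CTCF mESCs. It fell by 0.34 on the log2 scale (SE 0.0632, adjusted p = 0.000335 by edgeR's quasi-likelihood test, range over its alternatives 3.12e-06 to 0.384). Axin2, a feedback inhibitor of beta-catenin, had 4115 and 4439 counts and then 3633 and 3756, and fell by 0.22 (SE 0.0481, adjusted p = 0.00397 by the same edgeR test, range 0.000429 to 0.419). Axin2 shares 209 exon bases with Gm11670. Dkk1, a secreted WNT inhibitor, had 220 and 252 counts and then 155 and 133, and fell by 0.72 (SE 0.187, adjusted p = 0.0183 by the same edgeR test, range 0.00857 to 0.425). In each of the 3 both MUT_CTCF libraries were below both WT_CTCF libraries, which 11 of the 24 tested genes did and 2 did in the other direction, beside 22.3% of all tested genes in each direction. The median log2 fold change of the list was -0.03. T, the brachyury gene of the streak, had a log2 fold change of -0.07 (SE 0.167), and Ctnnb1, the gene of beta-catenin and the most abundant of the list per kilobase, had 39150 ± 522 and 38940 ± 464 normalised counts (SD, n = 2). DESeq2 called 2 of the list and gave no adjusted p for 16 of the 24, Dkk1 among them. None of the 3 falls passed without MUT_CTCF replicate 1, without MUT_CTCF replicate 2 or without a filter, and 1, that of Sp5, passed without WT_CTCF replicate 2. Over the fits that left out a library the log2 fold changes kept their sign, from -0.44 to -0.24 for Sp5, -0.27 to -0.16 for Axin2 and -0.82 to -0.62 for Dkk1.

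**Figure D4:**
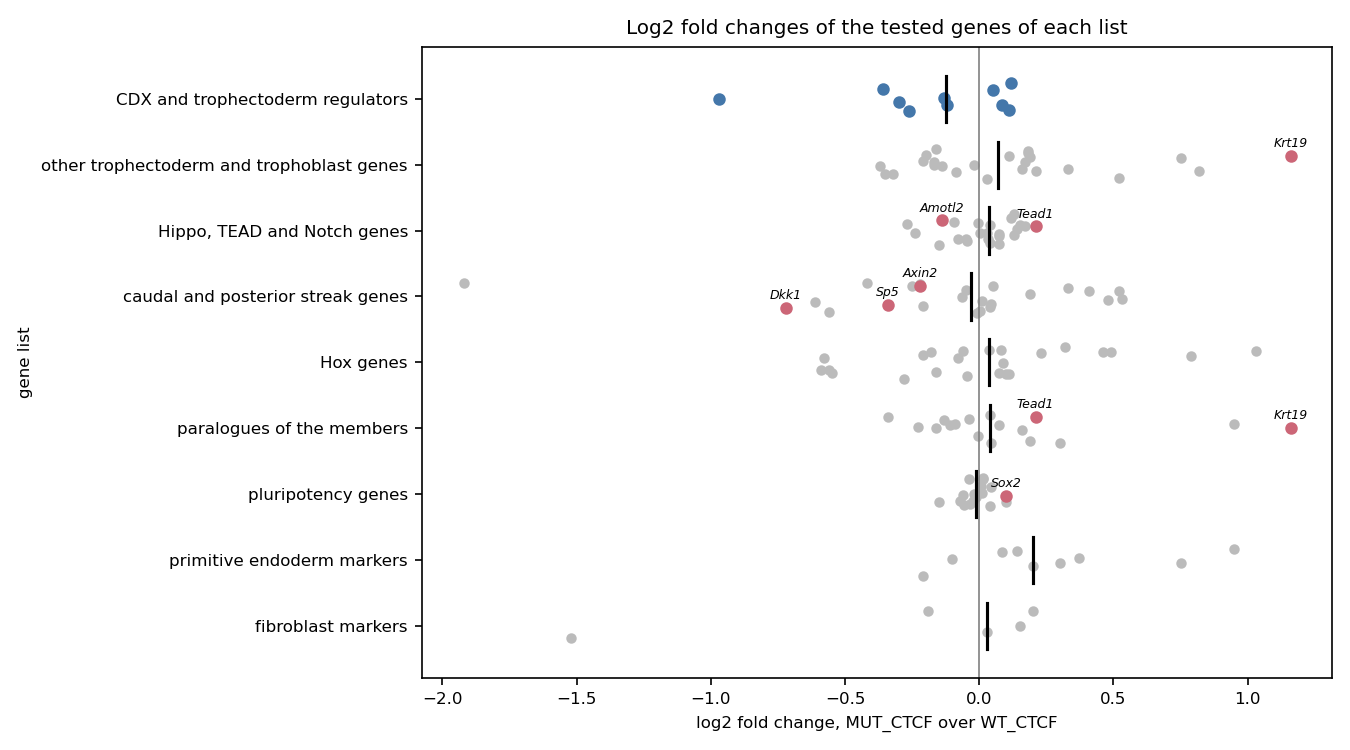
Log2 fold changes of MUT_CTCF over WT_CTCF for the tested genes of each list (points, spread vertically at random for view), with the median of the list as a black line. Red points with names had an adjusted p under 0.05, blue points are the 10 members, shown without calls, and grey points did not pass. Krt19 at 1.16 lies to the right of the other named genes, and Dkk1, Sp5 and Axin2 lie left of 0.

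The Hox genes, which CDX factors regulate in the trunk, had 0 calls among 23 tested of 39 listed by edgeR's quasi-likelihood test, beside 3.17% of all tested genes. There were 1 higher and 1 lower at an unadjusted p under 0.05, beside 15.3% of all tested genes in either direction. DESeq2 called 0, with no adjusted p for 21 of the 23. Their median log2 fold change was 0.04, and they summed to 75.9 and 75.25 CPM in WT_CTCF and to 76.46 and 72.84 CPM in MUT_CTCF mESCs. Hoxc13, the most abundant per kilobase over the 4 libraries, had 717 and 712 counts in WT_CTCF and 656 and 630 in MUT_CTCF mESCs. Its log2 fold change was -0.16 (SE 0.101, adjusted p = 0.492 by edgeR's quasi-likelihood test). In MUT_CTCF mESCs Hoxb9 was above Hoxc13, at 6.64 ± 0.238 beside 6.39 ± 0.122 CPM per kilobase (SD, n = 2). Of the 23 tested, 4 had both MUT_CTCF libraries above both WT_CTCF libraries and 3 had both below. Of all tested genes 22.3% did so in each direction. Hoxb3, Hoxd4 and Hoxd10 had 0 counts in all 4 libraries.

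Paralogues of the members outside the CDX family gave 2 rises and 0 falls among 17 tested of 22 listed (11.8%, beside 3.17% of all tested genes, 1.56% as higher). These were Krt19 and Tead1, both already counted in the lists above. The list had 3 higher and 0 lower at an unadjusted p under 0.05, beside 15.3% of all tested genes in either direction. DESeq2 called 1 gene of the list and gave no adjusted p for 11 of the 17, Krt19 among them. The median log2 fold change was 0.04. No call was left in this list without MUT_CTCF replicate 1, without MUT_CTCF replicate 2 or without a filter on low counts, and 1 was left without WT_CTCF replicate 2. The most abundant paralogue per kilobase was Elf3, an epithelial ETS factor related to Elf5, with 8190 ± 183 and 8429 ± 80.1 normalised counts (SD, n = 2, log2 fold change 0.04, SE 0.0357). Elf3 is thus abundant in the same libraries in which Elf5 is near 0.

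The pluripotency genes gave 1 rise and 0 falls among 17 tested (5.88%, beside 3.17% of all tested genes). With an unadjusted p under 0.05 there were 2 higher and 3 lower, beside 15.3% of all tested genes in either direction. Sox2 had 20959 and 20711 counts in WT_CTCF and 22315 and 22368 in MUT_CTCF mESCs. The log2 fold change was 0.10 (SE 0.0272, adjusted p = 0.0358 by edgeR's quasi-likelihood test, range over its alternatives 0.015 to 0.387), and the call was lost in each fit that left out a library, with adjusted p of 0.20 to 0.387, by edgeR's exact test (adjusted p = 0.103) and without a filter (adjusted p = 0.269). Pou5f1, whose product and CDX2 repress each other, had 33118 and 32273 counts in WT_CTCF and 31065 and 31430 in MUT_CTCF mESCs, with a log2 fold change of -0.07 (SE 0.0251, adjusted p = 0.119 by edgeR's quasi-likelihood test). Nanog had 58040 ± 220 and 59680 ± 598 normalised counts (SD, n = 2). The median of the list was -0.01.

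Markers of other cells that mESC cultures can hold were read beside these values. The 12 primitive endoderm markers summed to 22.59 and 23.1 CPM in WT_CTCF and to 23.58 and 29.61 CPM in MUT_CTCF mESCs, with Amn the most abundant per kilobase at 1.98 ± 0.212 (CPM per kilobase, SD, n = 4). Of the 9 tested, 0 passed by edgeR's quasi-likelihood test (3.17% of all tested genes did). At an unadjusted p under 0.05 there were 2, both higher, beside 15.3% of all tested genes in either direction. DESeq2 called 0, with no adjusted p for any of the 9. Of these 9, 4 had both MUT_CTCF libraries above both WT_CTCF libraries and 0 had both below, beside 22.3% of all tested genes in each direction, and the median log2 fold change was 0.20. Gata6 had 57 and 50 counts in WT_CTCF and 99 and 108 in MUT_CTCF mESCs. The 10 fibroblast markers, which feeder cells would carry, summed to 45.77 and 47.06 CPM and then 46.69 and 52.47 CPM. Of the 5 tested, 0 passed by the same test and 1 had an unadjusted p under 0.05, beside the same shares of all tested genes. DESeq2 called 0, with no adjusted p for 3 of the 5, and the median log2 fold change was 0.03. The 1 gene with an unadjusted p under 0.05 was Col3a1, lower in MUT_CTCF mESCs, with 26 and 23 counts and then 12 and 5 (log2 fold change -1.52, SE 0.705). Of the 5 markers tested, 2 had both MUT_CTCF libraries above both WT_CTCF libraries and 1 had both below, beside 22.3% of all tested genes in each direction. Lum had 0 counts in all 4 libraries, and the most abundant fibroblast marker per kilobase was Thy1, at 9.52 ± 0.897. The part of either cell type in the values of the members was not tested.

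The genes whose values over the 4 libraries were most like those of Cdx2 were sought among 11591 genes with a mean of at least 100 normalised counts, by the root mean square difference of centred log2 CPM. Among the closest were Gm12174 (0.172), Pglyrp1 (0.172), 4933402E13Rik (0.199) and Fgfbp1 (0.203). Pglyrp1, which encodes a peptidoglycan-binding protein, had 182 and 184 counts in WT_CTCF and 110 and 125 in MUT_CTCF mESCs. Fgfbp1, of a protein that binds and releases FGF, had 163 and 180 counts and then 110 and 119. Gm12174 is a pseudogene and may share reads with its parent gene. As Cdx2 was lower in MUT_CTCF mESCs, the lower values of these genes there follow from how they were chosen. The likeness holds for 4 libraries in 2 lines and is a description.

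Across all tested genes edgeR's quasi-likelihood test called 515 at an adjusted p under 0.05, 253 higher and 262 lower in MUT_CTCF mESCs. The cut-off of the study's methods (unadjusted p below 0.05 and more than 2-fold) was met by 212 genes, 1.3% of those tested. With scaling by library size only the calls were 260 higher and 152 lower, and without a filter on low counts they were 26 higher and 3 lower. The fit called 199 genes when WT_CTCF replicate 1 was left out and 244 when WT_CTCF replicate 2 was. It called 6 genes when MUT_CTCF replicate 1 was left out and 6 when MUT_CTCF replicate 2 was. With 2 libraries per line the smallest p that a two-sided exact permutation could reach is 0.333, and each adjusted p above therefore relies on spread pooled over genes by edgeR.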

How the data were processed

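RNA of 2 WT_CTCF and 2 MUT_CTCF mESC samples, which the study's methods call total mRNA, was sequenced. The authors trimmed reads with Trim Galore 0.4.4 (version per the submitters' processing notes), aligned them to mm9 with STAR at default parameters and deposited counts of uniquely mapped reads per gene from HTSeq-count 0.9.1, without normalization. The strand setting and the annotation used in counting are not given in the sources used here. A deposited table of the authors' own edgeR comparison (log2 fold change, mean level, p-value and false discovery rate) was not used.

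Gene names and positions came from GENCODE M1 (NCBIM37, the mm9 build), which named 37205 of 37620 identifiers. Tfap2c was matched through its older symbol Tcfap2c. Genes were filtered with filterByExpr (minimum of 10 counts), libraries were scaled by TMM (factors 0.994 to 1.006), and MUT_CTCF was compared with WT_CTCF by glmQLFit and glmQLFTest of edgeR 4.0.16 (R 4.3.3) with the line as the sole term and p-values adjusted by Benjamini-Hochberg over all 16264 tested genes. Standard errors were obtained as the absolute log2 fold change over the square root of F. Levels per kilobase used the summed exon length of each gene. Replicates of a line differed by more than sampling noise (chi-square per degree of freedom 3.61 in WT_CTCF and 4.27 in MUT_CTCF).

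The members and the gene lists were chosen with earlier results of these data known. Genes were named by rule: all members; of every other list up to 3 genes with the smallest p among those with an adjusted p under 0.05, and its most abundant gene per kilobase; the 3 nearest coding genes on each side of Cdx2, Cdx4 and the keratin pair; markers of the cells; and the 5 genes most like Cdx2, of which 1 is not reported here. Other genes, such as Eomes, Yap1, T, Gata6, Col3a1 and genes with 0 counts, were named after their values were seen. Other settings were tried as well: a Wald test in DESeq2 1.42.0, the exact test of edgeR, scaling by median-of-ratios size factors or by library size only, no filter or a stricter one (10 reads in all 4 libraries), the replicate number as a block, and fits that left out 1 library.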

Additional observations from a re-analysis of the deposited data

How the results depend on the processing

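Without a filter on low counts 29 genes passed in place of 515, 26 higher and 3 lower in MUT_CTCF mESCs. The calls were then 0 among the other trophectoderm genes, the Hippo, TEAD and Notch genes, the caudal genes, the paralogues and the pluripotency genes. DESeq2 called 286 genes, 275 of them shared with the 515. It gave no adjusted p for 57 of the 515 and lost 183. It called 0 other trophectoderm genes, with no adjusted p for 16 of the 24, Krt19 among them. It called 1 paralogue (no adjusted p for 11 of 17) and 2 caudal genes (none for 16 of 24, Dkk1 among them). edgeR's exact test called 0 pluripotency genes. With at least 10 reads required in every library, 117 genes met the criterion of the study's methods in place of 212. The causes were not tested.

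Where the replicate number was a block, 698 genes passed, with 2 other trophectoderm genes, 1 Hox gene and 2 pluripotency genes. Deviations of same-numbered libraries correlated at 0.0194 over 11592 genes. The labels give only a replicate number, and whether same-numbered libraries share a batch was not tested.

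With 1 library left out, which leaves a lone library assumed to vary like the other line, 6 to 244 genes passed and 195 to 270 met the criterion. The calls were 0 to 1 for the other trophectoderm genes, 0 to 2 for the Hippo, TEAD and Notch genes, 0 to 3 for the caudal genes, 0 to 2 for the paralogues and 0 to 0 for the pluripotency genes.

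The alternatives were run for 31 of the genes named outside the members. Of these, 288 of 328 values kept their direction and side of the threshold, 28 no longer passed and 12 changed sign, none of these 12 a called gene. For the members 105 of 109 values kept their sign and 4 changed it, 2 of Elf5 (-0.48 to 0.17 over the alternatives), 1 of Hand1 (-0.17 to 0.48) and 1 of Krt18 (-0.082 to 0.28), each with a library left out. The log2 fold change of Ctnnb1 (-0.0076) became 0.0047 with library size only. Over the fits that left out a library the log2 fold change ran from -0.021 to 0.0060 for Ctnnb1 (0.0041 without MUT_CTCF replicate 1), -0.042 to 0.0064 for Cldn4, -0.064 to 0.14 for Hes1, -0.084 to 0.24 for Amn, -3.43 to 0.78 for Pdx1, -0.72 to 0.26 for 4930519F16Rik, -0.18 to 0.086 for Krt79 (0.054 without MUT_CTCF replicate 2), -0.034 to 0.21 for Tenc1 and -0.049 to 0.0048 for Esrrb. Depth limits Cdx4 and Elf5 most.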

Other observations

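A few genes near the members or in the lists had too few reads to be tested, with both MUT_CTCF libraries on 1 side of both WT_CTCF libraries, and were picked after their values were seen. Of all tested genes 22.3% were so placed in each direction, and the share among untested genes was not counted. Zcchc13, 300.0 kb from Cdx4 on the X chromosome, had 1 and 0 counts in WT_CTCF and 9 and 9 in MUT_CTCF mESCs. Wnt5a, of a WNT ligand of the posterior embryo, had 1 and 0 counts and then 7 and 8. Acta2, the smooth muscle actin gene, had 1 and 2 counts and then 8 and 17. In the other direction Hoxb5 had 6 and 3 counts in WT_CTCF and 0 and 0 in MUT_CTCF mESCs, Hoxc6 had 27 and 9 and then 8 and 5, and Foxa2, of an endoderm factor, had 5 and 7 and then 2 and 0.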
